A study of Mus musculus with 62 samples.

Results

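The genes described here are the cytosolic ribosomal protein genes of the mouse, followed at the levels of RNA, ribosome footprints and footprints of collided ribosomes in the heart and in C2C12 myoblasts. A gene was a member when a transcript of the deposited count table carried, by its GENCODE M21 identifier, a symbol beginning with Rpl or Rps and a digit, or was Rplp0, Rplp1, Rplp2 or Rpsa. Rpl3l, the Rps6k kinases, Rps19bp1 and annotated pseudogenes were left out, and each gene was represented by its transcript with the most counts. This gave 45 members among 10476 genes with a name. Of these, 30 encode proteins of the large (60S) subunit, 12 encode proteins of the small (40S) subunit, and 3 (Rpl22l1, Rps27l and Rpl39l) are paralogs of a core gene. All matched transcripts of the table lie on the plus strand, so ribosomal protein genes of the minus strand, Rpl3 among them, were not analysed here.

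The study compared hearts of male C57BL/6J mice that were wild type (WT) or lacked RPL3L (Rpl3l KO, a CRISPR-Cas9 deletion of exon 2 that shifts the reading frame), with 4 replicates of each genotype at 10 weeks of age in RNA-seq, in Ribo-seq and in Disome-seq, and 3 in m6A-seq, for which no age is given. It also compared proliferating C2C12 mouse myoblasts infected with a pCX4 retrovirus that was empty (control) or encoded RPL3 (RPL3 OE) or RPL3L (RPL3L OE) and then selected in puromycin, with 3 replicates of each in both RNA-seq and Ribo-seq. RPL3L is the form of the large-subunit protein RPL3 found in heart and skeletal muscle. The knockout was made in the whole animal, and C2C12 is a single immortalized line.

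A cytosolic ribosome holds most of its proteins in a single copy, so cells make these proteins in near-equal amounts. Their mRNAs are short and abundant, and most begin with a run of pyrimidines (the 5′ terminal oligopyrimidine, or TOP, motif) through which LARP1 and the kinase mTOR hold back or release their translation as growth conditions change. Ribosomal protein genes have also left many processed pseudogenes in mammalian genomes, whose sequence is close or identical to that of the parent mRNA.

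Sequence around the annotated start of transcription was available for 38 members in RefSeq (GRCm38.p6), and the start windows below, from 10 bases before the start to 20 bases from it, are shown because the TOP motif is the feature these mRNAs are known for. Capitals mark the longest uninterrupted run of C and T where it reached 8 bases. The first 4 genes also had a C followed by 4 pyrimidines exactly at the annotated start, the next pair had the longest runs, and the last 3 had no such run although their translational efficiency was among the most reduced in the heart (described further on).
Rpl14, chr9:120571507-120571536, plus strand: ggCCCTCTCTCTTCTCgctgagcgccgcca
Rpl28, chr7:4792955-4792984, plus strand: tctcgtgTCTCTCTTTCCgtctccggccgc
Rpl38, chr11:114668570-114668599, plus strand: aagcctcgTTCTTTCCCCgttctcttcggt
Rplp2, chr7:141447641-141447670, plus strand: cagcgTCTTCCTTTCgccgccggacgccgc
Rpl7a, chr2:26910797-26910826, plus strand: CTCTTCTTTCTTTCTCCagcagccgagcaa
Rpl27a, chr7:109519185-109519214, plus strand: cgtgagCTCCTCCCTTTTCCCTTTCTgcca
Rpl26, chr11:68901556-68901585, plus strand: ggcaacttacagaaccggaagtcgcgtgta
Rps19, chr7:24884666-24884695, plus strand: cggtgagtgagggctctgggtcgcggctgt
Rps16, chr7:28350679-28350708, plus strand: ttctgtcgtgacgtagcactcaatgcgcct

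A run of at least 8 pyrimidines was present in the window of 10 of the 38 members, or 26.3%, against 11.2% of the 32851 promoters in the table. A C followed by 4 pyrimidines at the start itself was present in 5 members (13.2%) and in 2.51% of all promoters. The letters CCGGAAG, searched on both strands over the 300 bases of each promoter, were found in 34.2% of members and in 8.86% of all promoters, whereas AAGATGGC (2.63% against 2.75%) and TATAAA (10.5% against 13.6%) were found about as often in members as elsewhere. These counts depend on the annotated start, and a window without the run says only that the letters were not there.

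Transcript counts per library, summed over all transcripts of the table, ranged from 3594696 to 22425296 for heart RNA-seq, from 1606700 to 3192090 for heart Ribo-seq, from 39016 to 175747 for Disome-seq, from 7647102 to 29746110 for C2C12 RNA-seq and from 3167026 to 6093268 for C2C12 Ribo-seq. Rpl3l itself was found at 999 to 1283 CPM (counts scaled to a common library size) in RNA-seq of WT hearts and at 59.7 to 91.3 CPM in Rpl3l KO hearts, and it reached 4487 to 4612 CPM in RPL3L OE cells, where control cells held at most 1.29 CPM. CPM of Rpl3l and of cell type markers were scaled to the counts of 1 transcript per gene. That total is smaller than the one used for the members, so these CPM are not on the members' scale. All 6 cardiomyocyte markers with a row were detected in the hearts, and 5 of them stayed under 1 CPM in every control culture. The remaining marker was expressed in the cells, where the 6 summed to 503 to 515 CPM, against 109430 to 129082 CPM in WT hearts.

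Ribosomal protein mRNAs took up about the same share of the RNA pool in every C2C12 sample and a smaller share in every heart. With 1 transcript counted per gene, the members held 4.43%, 5.02%, 5.36% and 5.88% of RNA-seq counts in the WT hearts and 11.0%, 11.2% and 11.3% in the control C2C12 cultures. The difference was wider among ribosome footprints. The members held 1.10%, 1.12%, 1.32% and 1.88% of Ribo-seq counts in WT hearts against 5.73%, 5.99% and 6.27% in control cells. The groups did not overlap in either assay. In Rpl3l KO hearts the share was 5.41 ± 0.672% (SD, n = 4) of RNA-seq counts and 1.29 ± 0.314% of Ribo-seq counts, which overlapped with the WT values of 5.17 ± 0.610% and 1.36 ± 0.362%. Mitochondrial ribosomal protein genes, for comparison, held 1.02 ± 0.0581% of RNA-seq counts in WT hearts and 0.647 ± 0.00730% in control cells, the reverse order. Among C2C12 cells the share in RNA-seq was 10.5%, 10.7% and 10.7% in RPL3L OE, below all control samples and below the 11.2%, 11.2% and 11.5% of RPL3 OE.

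**Figure D1:**
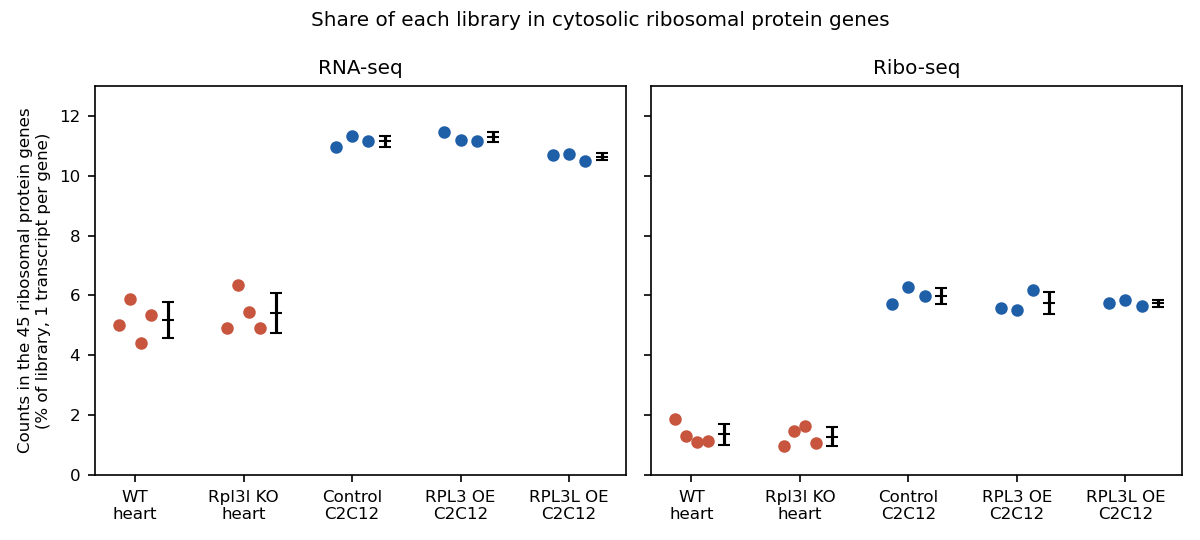
Share of each RNA-seq and Ribo-seq library (% of counts, 1 transcript per gene) taken up by the 45 cytosolic ribosomal protein genes, with 1 point per library and the mean ± SD beside each group (n = 4 hearts or 3 C2C12 samples). Heart libraries lie between 4.43% and 6.35% in RNA-seq and between 0.970% and 1.88% in Ribo-seq, all below every C2C12 library.

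By RNA level per length (TMM-scaled CPM per kilobase of transcript), all 44 members with a mean of at least 10 RNA-seq counts fell among the top 10% of genes in both the WT heart and control C2C12. The 5 highest in the heart were Rps15 at 1329 ± 232 (SD, n = 4), Rps9 at 1273 ± 254, Rpl36 at 1249 ± 282, Rplp0 at 1095 ± 140.0 and Rpl26 at 1074 ± 215 CPM per kilobase. These values lie within a single SD of their neighbours, except that the step from Rpl36 to Rplp0 exceeds the SD of Rplp0. In control C2C12 the order was led by Rpl8 (2577 ± 57.1, n = 3), Rplp0 (2466 ± 108), Rps15 (2190 ± 122), Rpl19 (1865 ± 68.2) and Rps9 (1489 ± 57.5). RPLP0 forms the base of the stalk that recruits translation factors, and RPL8 lies near the peptidyl transferase centre. The lowest levels in the heart belonged to Rpl12, Rps19, Rpl21, Rps27l and Rpl22l1, and in C2C12 to Rps19, Rps27l, Rpl29, Rpl22l1 and Rpl21, from 94.8 ± 3.84 for Rpl21 upward. The order depends on the length used: with coding length in place of transcript length, 2 of the 5 highest in each source and 3 (heart) or 5 (C2C12) of the 5 lowest stayed in those places.

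The paralogs had low levels of RNA or were barely detected. Rpl22l1, a paralog of Rpl22 that can replace it in ribosomes, stood at 79.4 ± 11.1 CPM per kilobase in WT hearts, where Rpl22 stood at 472 ± 80.5, and at 185 ± 10.00 against 687 ± 18.9 in control C2C12. Rps27l, a paralog of Rps27, stood at 178 ± 38.2 in the heart and 269 ± 21.1 in C2C12. Rpl39l, known from the testis, had 0 counts in each of the 9 C2C12 RNA-seq libraries, a depth at which 3 counts are worth at most 0.392 CPM, and never more than 4 counts in a heart library. It passed the count filter in no comparison and is left out of the counts of members tested.

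The comparison of WT heart with control C2C12 asks how the adult organ and a dividing muscle precursor line differ in the expression of the ribosome's own proteins. At the RNA level 34 of 44 members passed the threshold (edgeR quasi-likelihood test, Benjamini-Hochberg adjusted p under 0.05), where 81.8% of all transcripts did. Lower RNA in the heart was called for 31 members, against 43.9% of all transcripts tested, and higher RNA for 3. The median log2 difference of members was -0.53, set against -0.19 for all transcripts, so the members lay below the median transcript as well as below 0. Since bulk samples were used, fewer cells of a type and less RNA per cell cannot be told apart.

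The largest decreases were in Rpl12, Rpl8, Rpl22l1 and Rpsa. Rpl12, whose protein lies at the base of the factor-recruiting stalk, was at 344, 423, 487 and 535 CPM in the WT hearts and at 1234, 1344 and 1355 CPM in control cells, a log2 difference of -1.55 ± 0.13 (SE, adjusted p = 5.02e-08). Rpl8 differed by -1.39 ± 0.12 (adjusted p = 9.26e-08), Rpl22l1 by -1.24 ± 0.12 (adjusted p = 2.37e-07) and Rpsa, the laminin-receptor homologue of the small subunit, by -1.22 ± 0.14 (adjusted p = 1.33e-06). The stalk gene Rplp0 was lower by a similar amount (-1.17 ± 0.11, adjusted p = 1.58e-07), while its partner Rplp2 showed a difference of 0.11 ± 0.14 (adjusted p = 0.474). Rplp0 was thus called and Rplp2 was not, and the difference between these stalk genes was not tested. Rpl10 (-0.89 ± 0.10) and Rpl36a (-1.07 ± 0.11) were also called lower.

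The members called higher in the heart were Rpl21 (1.15 ± 0.11, adjusted p = 2.30e-07), Rpl29 (1.00 ± 0.11, adjusted p = 9.28e-07) and Rpl26 (0.38 ± 0.14, adjusted p = 0.0174). Rpl21 was at 325, 396, 404 and 433 CPM in the hearts and at 170, 175 and 184 CPM in control cells, with no overlap. With library totals in place of TMM scaling, the median over all transcripts moved from -0.19 to -0.84, the members' median moved with it to -1.18 (2 members called higher and 42 lower), and Rpl26 turned to -0.27 (adjusted p = 0.0410). Rpl26 also lost its call with the replicate block, and without control C2C12 replicate 1 or 3 or WT heart replicate 4.

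Beyond the RNA, ribosomal protein mRNAs carried far fewer footprints per mRNA in the heart, relative to other transcripts. The scaling gives no absolute number of footprints per mRNA. Translational efficiency (TE, Ribo-seq relative to RNA-seq, tested as a source-by-assay interaction) differed for 43 of 44 members, where 47.8% of all transcripts passed. It was lower in the heart for 40 members, against 24.3% of all transcripts, and higher for 3, against 23.5%. Among those called higher, Rpl21 and Rpl29 passed the count minimum only through their heart libraries (described further on). The median log2 difference in TE was -1.31 over the members and -0.02 over all 13989 transcripts tested. With library totals these medians were -0.95 and 0.32, with 36 members called lower, so the gap between members and all transcripts was similar. Median log2 TE of the members was -1.76 in WT hearts, where the median gene stood at 0.41, and -0.27 in control C2C12, where it stood at 0.45. None of the 44 members reached the TE of the median gene in the heart, and 4 of 42 did so in C2C12.

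Rpl26 had the largest decrease in TE. Its Ribo-seq level was 111, 124, 132 and 196 CPM in WT hearts and 469, 496 and 521 CPM in control cells, although its RNA was somewhat higher in the heart (565 ± 113 against 433 ± 8.80 CPM), and its TE differed by -2.18 ± 0.22 (SE, adjusted p = 1.26e-07). The footprint levels of the 2 sources did not overlap. Rps19, the gene most often mutated in Diamond-Blackfan anaemia, differed by -2.0 ± 0.26 (adjusted p = 3.36e-06) and Rps16 by -1.79 ± 0.23 (adjusted p = 2.46e-06). These 3 genes kept their calls under all alternatives run for this comparison.

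Other genes of known role lay in the same range. TE was lower in the heart for the 5S particle gene Rpl5 (-1.75 ± 0.23, adjusted p = 4.85e-06), for the stalk genes Rplp0 (-1.33 ± 0.26, adjusted p = 0.000243) and Rplp2 (-1.46 ± 0.19, adjusted p = 2.97e-06), for the anaemia genes Rps24 (-1.09 ± 0.19, adjusted p = 8.18e-05) and Rpl35a (-1.19 ± 0.22, adjusted p = 0.000188), for Rps15 (-1.54 ± 0.19, adjusted p = 2.16e-06) and for Rpl10 (-0.72 ± 0.19, adjusted p = 0.00331). Rpl22 and its paralog Rpl22l1 differed by -1.48 ± 0.24 and -1.28 ± 0.20. Rps27l was the single member without a call, with a difference of -0.16 ± 0.17 (adjusted p = 0.474). Its footprints were at 102, 113, 115 and 118 CPM in the hearts and at 176, 197 and 199 CPM in the cells, in step with its RNA (88.8 ± 19.1 against 134 ± 10.5 CPM).

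**Figure D2:**
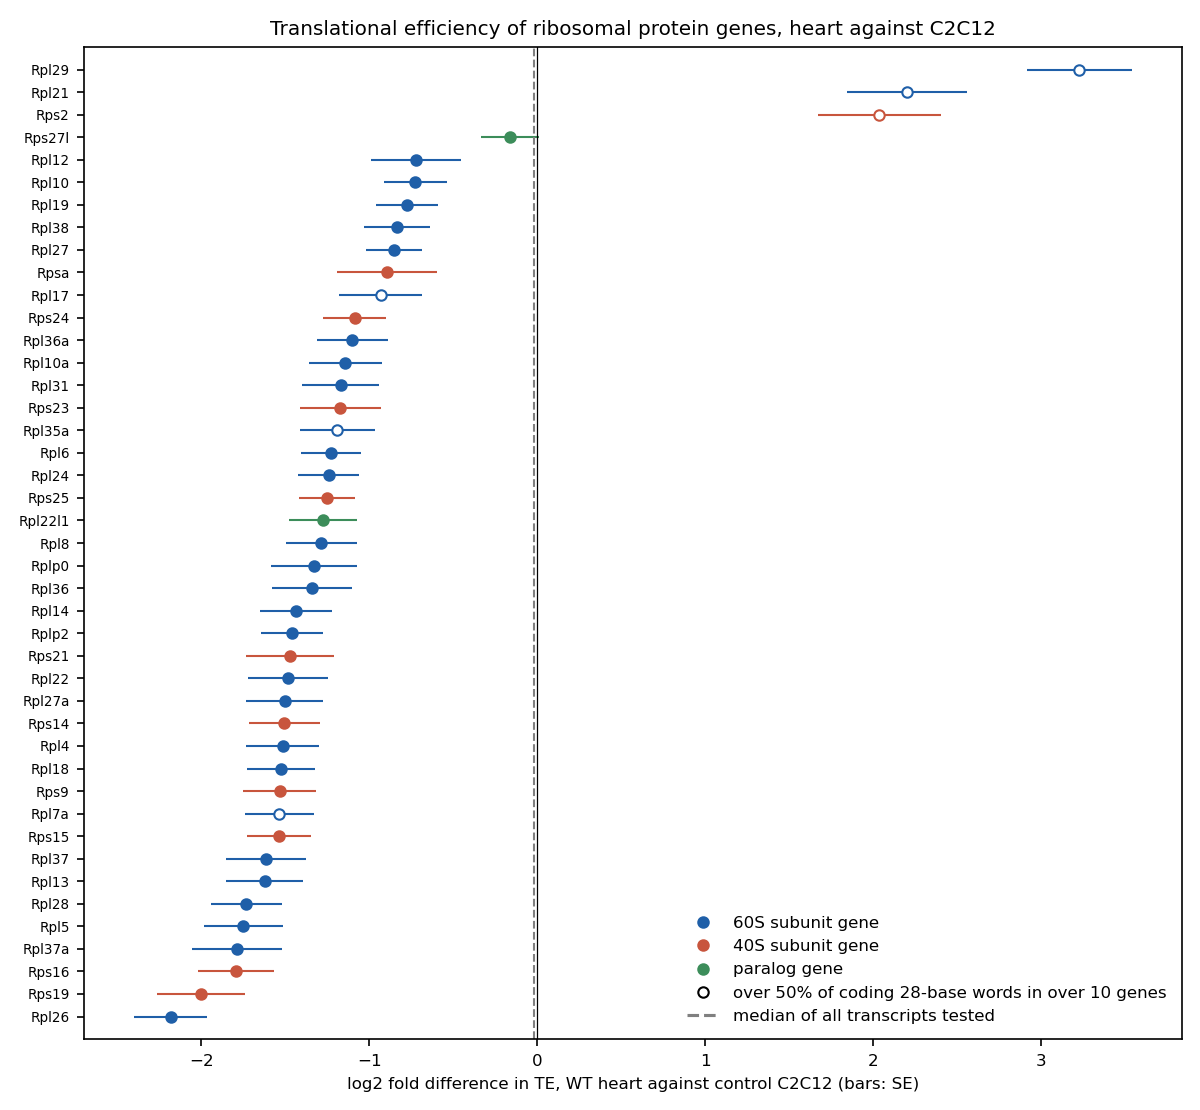
Log2 fold difference in TE between WT heart (n = 4) and control C2C12 (n = 3) for 43 of the 44 members tested (x axis, point and SE), sorted by size and coloured by subunit, with the dashed line at the median of all transcripts (-0.02). All members shown but Rps2, Rpl21 and Rpl29 lie to the left of 0, and open points mark the 6 genes whose coding sequence is mostly repeated in over 10 genes.

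The 3 members with higher TE in the heart were Rpl29 (3.23 ± 0.31, adjusted p = 9.83e-08), Rpl21 (2.20 ± 0.36, adjusted p = 4.03e-05) and Rps2 (2.04 ± 0.37, adjusted p = 0.000122). Their footprints were scarce in both sources. Rps2, with 14908 to 36561 RNA-seq counts in the control samples, had 21, 15 and 18 Ribo-seq counts there and 88, 28, 33 and 21 in the WT hearts. Rpl21 had 8, 2 and 7 Ribo-seq counts in control cells, and Rpl29 had 6, 3 and 9. These means of 5.67 and 6.0 are under the count minimum, so both entered the comparison through their heart libraries. The TE calls of Rpl21 and Rpl29 are therefore given as a description. With a mean of at least 50 counts required, none of the 3 was tested, and 40 of the 41 remaining members were called lower.

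These 3 genes had in common a coding sequence that recurs across the transcriptome. Of all overlapping 28-base words of a member's coding sequence, about the length of a ribosome footprint, a median of 96.4% also occurred in transcripts of another gene, pseudogenes included, against a median of 0% in 10402 other coding genes. The share was 11.4% in Rpl8 and 43.5% in Rpl4 and reached 100% in many members, and 41 of 45 members exceeded 50%, as did 12.6% of other genes. Words found in over 10 genes made up more than 50% of the coding sequence in 6 members (Rpl29, Rpl21, Rpl7a, Rps2, Rpl17 and Rpl35a) and none of it in 22.

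The 6 most repeated members had the lowest TE in both sources when the length of the transcript was used. With coding length this held in C2C12, whereas in the heart Rpl21 (-2.83) stood above Rpl13 (-2.87). Log2 TE ran from -5.71 to -3.70 in WT hearts for these 6 and from -3.37 to 0.33 for the other 38, and from -7.68 to -2.61 against -2.45 to 1.21 in control C2C12. Across the 44 members, Spearman's rho between log2 TE and the share of words in over 10 genes was -0.70 in the heart and -0.76 in C2C12, over points that share libraries. Rps2 was lowest in both sources on either length, and the next lowest was Rpl21 with transcript length but Rpl7a (heart) or Rpl29 (C2C12) with coding length. The part of shared sequence in these values was not tested.

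At the other end, the highest TE in WT hearts belonged to Rps27l (0.33 ± 0.37, SD, n = 4), Rpl22l1 (-0.12 ± 0.35), Rpl38 (-0.41 ± 0.40), Rps21 (-0.83 ± 0.43) and Rpl27 (-0.96 ± 0.29). In control C2C12 it belonged to Rpl22l1 (1.21 ± 0.08, n = 3), Rps21 (0.65 ± 0.06), Rps27l (0.51 ± 0.11), Rpl18 (0.47 ± 0.07) and Rpl38 (0.43 ± 0.07). Both expressed paralogs, whose levels of RNA were among the lowest of all members, were thus among those with the most footprints per RNA in both sources. In C2C12 the lowest were Rps2, Rpl21 (-6.98 ± 0.88), Rpl29 (-6.90 ± 0.74), Rpl17 (-3.10 ± 0.12) and Rpl7a (-2.67 ± 0.09). In the heart they were Rps2, Rpl21 (-4.78 ± 0.39), Rpl7a (-4.25 ± 0.48), Rpl17 (-4.09 ± 0.55) and Rpl35a (-3.84 ± 0.39).

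Members without words in over 10 genes were also called lower in the heart. Of these 22, 7 of which share all their words with at least 1 other gene, 21 were called lower and 0 higher, with a median difference of -1.48. Rpl8 and Rpl4, with under 50% of words shared with any gene, differed by -1.28 ± 0.21 and -1.51 ± 0.22, and both were called lower. By promoter start, the 10 members with a pyrimidine run had a median TE difference of -1.48 and a range of -1.73 to -0.77, and the 27 tested members without it had a median of -1.24. The ranges of these sets overlapped.

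**Figure D3:**
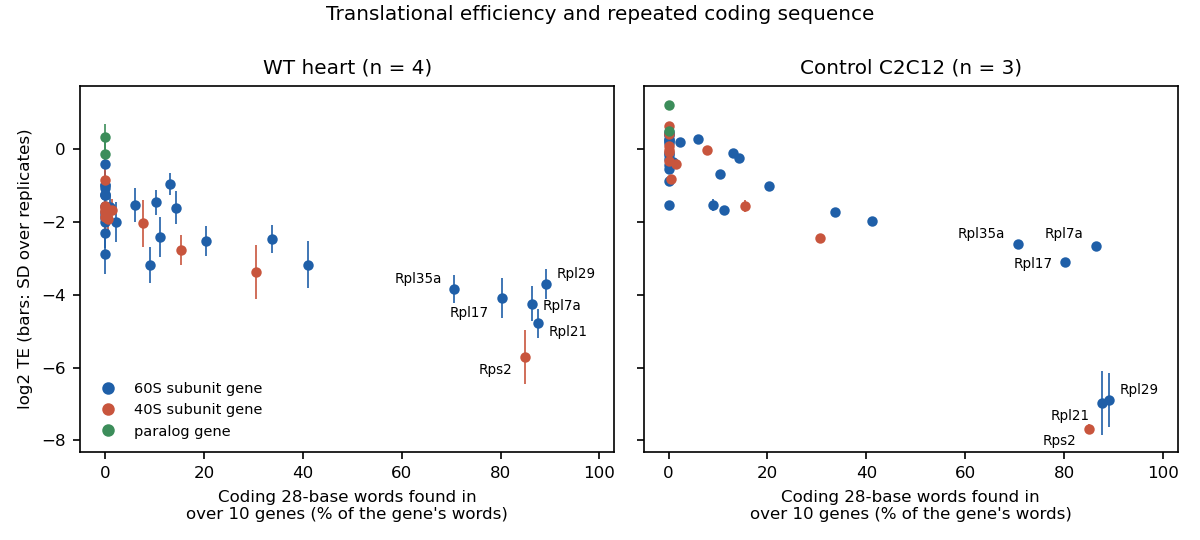
Log2 TE of each of 44 members (y axis, mean level with the SD over replicates) against the percentage of its coding 28-base words found in over 10 genes (x axis), in WT heart and control C2C12. The 6 labelled genes with over 50% of such words have the lowest TE (per transcript length) in both panels, down to -5.71 in the heart and -7.68 in C2C12.

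The hearts also contain cells of types that C2C12 does not hold. The summed RNA level of 3 macrophage markers with a row was 210 to 310 CPM in WT hearts and at most 1.29 CPM in control cells, that of 4 endothelial markers was 604 to 735 against at most 4.00 CPM, and that of 3 blood markers was 10302 to 16933 against 145 to 154 CPM. Of 5 myoblast markers with a row, 3 were under 1 CPM in every heart. Summed, however, the 5 stood higher in the heart, at 4023 to 4448 CPM in WT hearts and 1252 to 1332 CPM in control cells. The part of cell composition in the differences between heart and C2C12 was not tested. The 9 fibroblast markers with a row summed to 4726 to 5370 CPM in WT hearts and 4278 to 4476 CPM in control cells, and the 6 adipocyte markers to 283 to 1186 CPM against at most 0.15 CPM.

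Other genes of the translation machinery were examined with the same fits, in which 81.8% of all transcripts were called for RNA and 47.8% for TE. Of 12 TOP translation genes outside the ribosomal protein set, TE was called lower in the heart for 10 and higher for 1 (median -1.30), among them Eef2 (-1.64 ± 0.27, adjusted p = 4.14e-05), the translocase of elongation, and the ribosome components Fau (-1.65 ± 0.18, adjusted p = 5.72e-07) and Rack1 (-1.37 ± 0.24, adjusted p = 9.66e-05). Naca, of the nascent chain complex, was the exception (0.65 ± 0.13, adjusted p = 0.000249). Their RNA was lower for 7 and higher for 2. Of 30 ribosome biogenesis genes, RNA was lower in the heart for 27 and higher for 2 (median -1.46), and TE lower for 12 and higher for 3 (median -0.18). The 47 mitochondrial ribosomal protein genes showed higher RNA in the heart for 41 and lower for 2 (median 1.12), with lower TE for 34 and higher TE for 0 (median -0.70). Among 11 growth regulators, RNA was lower for 6 and higher for 3, and TE lower for 2 and higher for 6.

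The comparison of Rpl3l KO with WT hearts asks whether loss of the muscle form of RPL3 changes the expression of the other ribosomal proteins. In RNA-seq 0 of 44 members passed the threshold with edgeR, where 0.0130% of all transcripts did. An unadjusted p under 0.05 was held by 0 members and by 355 of all 15394 transcripts. DESeq2 called 0 members and 0.0715% of all transcripts. Of the 44, 41 were higher in the KO, by at most 0.19 on the log2 scale, and the median was 0.08 against 0.00 for all transcripts. This direction turned without KO replicate 2 (35 lower, median -0.05) and without WT replicate 3 (29 lower, median -0.02). Rpl18 had the smallest p (0.19 ± 0.15, SE, adjusted p = 0.999), followed by Rpl29 (0.16 ± 0.13, adjusted p = 0.999). Rpl18 was at 381, 387, 400 and 493 CPM in KO hearts and at 268, 349, 390 and 451 CPM in WT hearts, so the genotypes overlapped.

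In Ribo-seq the threshold was passed by 0 of 44 members, against 0.654% of all transcripts. An unadjusted p under 0.05 was held by 4 of 44 members and by 2095 of all 12695 transcripts. DESeq2 called 1 member and 1.46% of all transcripts. The member nearest the threshold was Rpl22l1. Its footprint level was 17.5, 21.1, 22.1 and 23.9 CPM in KO hearts and 25.5, 34.3, 34.8 and 51.5 CPM in WT hearts, with no overlap, and it differed by -0.82 ± 0.20 (adjusted p = 0.0777, and 0.0328 with DESeq2, which is the call named above). Rpl22, its partner, differed by -0.18 ± 0.22 (adjusted p = 0.724). Rpl29 was next (-0.57 ± 0.18, adjusted p = 0.138). Its levels were 15.4, 15.5, 17.3 and 21.3 CPM in the KO and 17.9, 26.3, 27.2 and 29.4 CPM in the WT, which overlapped.

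TE in the KO gave 0 calls among 44 members and 0% among all transcripts with edgeR. An unadjusted p under 0.05 was held by 4 members and by 798 of all 12483 transcripts. DESeq2 called 0 members and 0.176% of all transcripts. TE was lower in the KO for 37 of 44 members, with a median of -0.12 against -0.01 for all transcripts. Without WT replicate 1, 16 were lower and the median was 0.09, and without KO replicate 3, WT replicate 2 or WT replicate 4 all 44 were lower, with medians of -0.36, -0.25 and -0.26. Rpl29 (-0.72 ± 0.22, adjusted p = 0.465) and Rpl22l1 (-0.84 ± 0.28, adjusted p = 0.545) had the smallest p. Values for genes of known role included Rplp0 (-0.13 ± 0.32), Rplp2 (-0.05 ± 0.22), Rpsa (-0.08 ± 0.37), Rpl5 (-0.34 ± 0.29) and Rps19 (-0.21 ± 0.34), all with an adjusted p over the threshold. Differences of the size of these standard errors could not be detected with 4 hearts a genotype. In the same fits the 12 TOP translation genes, 30 ribosome biogenesis genes, 11 growth regulators and 47 mitochondrial ribosomal protein genes had 0 calls in RNA-seq, in TE and in the disome to monosome ratio and 1 call in Ribo-seq, a mitochondrial gene that was higher in the KO.

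Disome-seq recovers the longer footprints left where a ribosome runs into the one ahead, and its level relative to that of monosome footprints (Ribo-seq) reports how often ribosomes stack on an mRNA. Of the 45 members, 36 had a mean of at least 10 counts in both assays. In WT hearts the log2 ratio of disome to monosome level was highest for Rpl10 (2.89 ± 0.62, SD, n = 4), Rpl31 (2.84 ± 0.45), Rpl7a (2.56 ± 0.96), Rpl37 (2.08 ± 1.15) and Rpl27 (1.99 ± 0.32), and lowest for Rplp2 (0.14 ± 0.65), Rpl4 (0.35 ± 0.90), Rps14 (0.57 ± 0.87), Rps21 (0.64 ± 0.63) and Rpl24 (0.68 ± 0.29). Rpl10, which encodes a late-joining protein at the core of the large subunit, had 218 disome and 1044 monosome counts in the 4 WT hearts together, whereas Rplp2 had 123 and 2916. Words found in over 10 genes made up 33.7% of the coding sequence of Rpl10, 41.1% of Rpl31 and 86.4% of Rpl7a. They made up 0% of Rpl37, 13.1% of Rpl27, and 0% of Rplp2, Rpl4, Rps14, Rps21 and Rpl24. The part of shared sequence in this ratio was not tested.

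Between genotypes 0 of 36 members were called for the disome to monosome ratio by edgeR, as were 0% of all 1365 transcripts. The unadjusted p was under 0.05 for 1 member and for 87 of the 1365 transcripts. DESeq2 called 0 members and 1.83% of all transcripts. The ratio was lower in the KO for 32 of 36, with a median of -0.39 against 0.04 for all transcripts tested. Rpl18 (-0.91 ± 0.41, SE, adjusted p = 0.745) and Rpl28 (-0.80 ± 0.50, adjusted p = 0.812) had the smallest p. The direction rested on WT replicate 1, without which 13 of 31 members were lower and the median was 0.06. With the heart as a replicate block the members' median was -0.15, again with 0 calls. It was -0.50 over 30 members with the first disome run alone and -0.15 over 12 with the second.

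Of the deposited m6A peaks on coding regions (mm10), 5 lie in members, all overlapping coding exons of their representative transcripts. They are in exon 4 of Rpl22 (chr4:152332232-152332313), exon 3 of Rplp0 (chr5:115560729-115560767), exon 5 of Rpl21 (chr5:146835535-146835579) and exons 8 and 10 of Rpl4 (chr9:64177713-64177763 and chr9:64178230-64178257). The second Rpl4 peak, in the last exon, had the most reads, with 247, 67 and 32 in WT hearts and 66, 49 and 79 in KO hearts. The Rplp0 peak held 1 to 16 reads and was not tested. Of the 4 tested, 0 passed the threshold with edgeR or DESeq2 and 0 had an unadjusted p under 0.05. Of all 2338 peaks 0% passed with edgeR, and 224 had an unadjusted p under 0.05. The smallest p belonged to the last-exon Rpl4 peak (-0.58 ± 0.35, SE, adjusted p = 0.542) and the Rpl22 peak (-0.37 ± 0.43, adjusted p = 0.728), and the genotypes overlapped at all 4.

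The C2C12 cells allow the same genes to be followed when RPL3L or RPL3 is added to cells that make little RPL3L. In RNA-seq 25 of 44 members differed between RPL3L OE and RPL3 OE, where 26.6% of all transcripts did. Lower RNA in RPL3L OE was called for 23, against 12.8% of all transcripts, and higher RNA for 2. Among the 23 were 13 genes of the 60S subunit, 8 of the 40S subunit and both expressed paralogs. The members' median was -0.09, with 0.00 for all transcripts.

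Rpl22l1 showed the largest of these differences. Its RNA stood at 151, 156 and 161 CPM in RPL3 OE and at 109, 125 and 132 CPM in RPL3L OE, and it differed by -0.36 ± 0.05 (SE, adjusted p = 4.97e-08). Rpl6 (-0.21 ± 0.03, adjusted p = 2.77e-07), Rplp0 (-0.20 ± 0.03, adjusted p = 7.14e-08) and Rpl17 (-0.20 ± 0.04, adjusted p = 8.56e-06) followed. The 9 values of Rplp0 fell into order without overlap, with 3935, 3937 and 4077 CPM in RPL3L OE, 4210, 4368 and 4402 CPM in control and 4446, 4564 and 4696 CPM in RPL3 OE. Rpl7a (0.09 ± 0.03, adjusted p = 0.0174) and Rpl31 (0.09 ± 0.03, adjusted p = 0.0327) were the members higher in RPL3L OE, and both lost the call when single samples were left out. Rpl22, the partner of Rpl22l1, was at 388 to 427 CPM in all 9 samples.

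Against control cells, RPL3L OE lowered the RNA of 9 of 44 members and raised 0, where 9.05% of all transcripts were called and 4.21% were called lower. The largest decreases were in Rplp2 (-0.18 ± 0.03, adjusted p = 0.000145), Rpl6 (-0.14 ± 0.03, adjusted p = 0.00139), Rpl21 (-0.14 ± 0.04, adjusted p = 0.00976) and Rplp0 (-0.12 ± 0.03, adjusted p = 0.00224). Rplp2, a stalk gene, was at 758, 785 and 841 CPM in RPL3L OE and at 843, 906 and 949 CPM in control cells. The members' median was -0.06. Without control replicate 1 the count was 21, and without control replicate 3 it was 4.

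In RPL3 OE, RNA was called higher than in control for 4 of 44 members (9.09%) and lower for 0. Among all transcripts 15.9% were called and 7.69% were called higher, so the members were near the share of all transcripts. The 4 members were Rpl22l1 (0.24 ± 0.05, adjusted p = 5.40e-05), Rpl17 (0.13 ± 0.03, adjusted p = 0.00331), Rpsa (0.10 ± 0.03, adjusted p = 0.00915) and Rplp0 (0.08 ± 0.03, adjusted p = 0.0466). Rpl22l1 was at 125, 132 and 138 CPM in control cells, below the 3 RPL3 OE samples. The count was 9 without control replicate 2, and with library totals 4 members were higher and 1 lower. Both comparisons with control share the same 3 control samples.

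**Figure D4:**
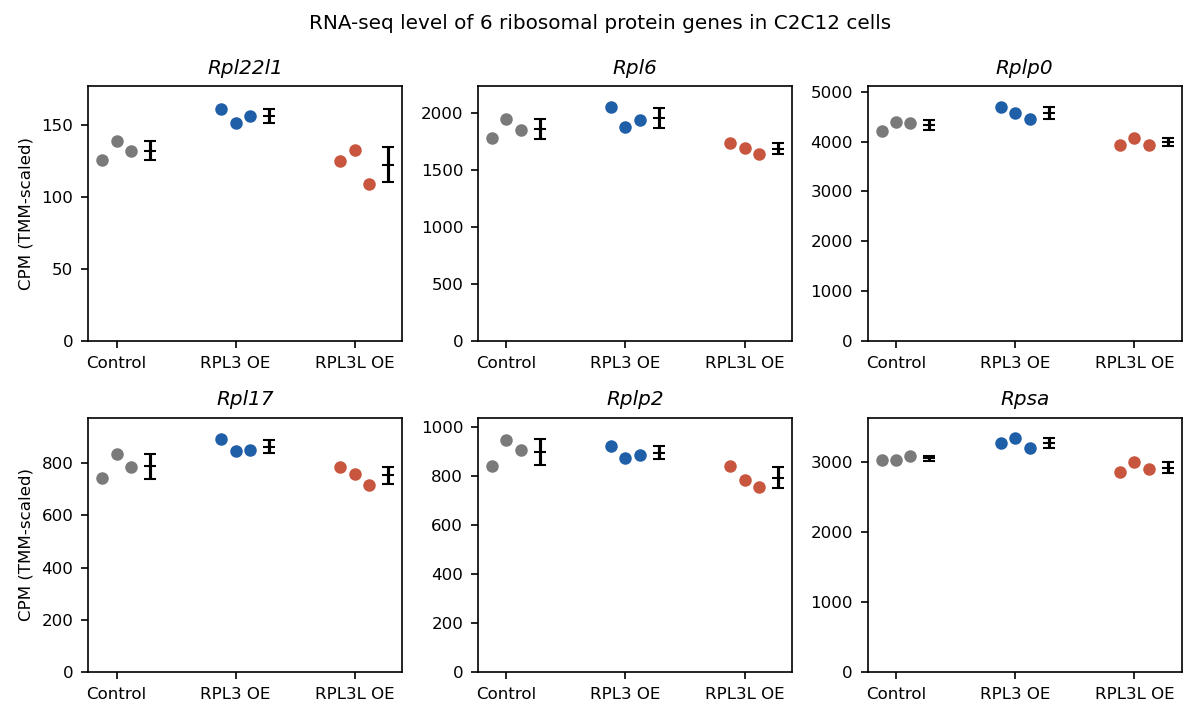
RNA-seq level (TMM-scaled CPM) of 6 ribosomal protein genes in control, RPL3 OE and RPL3L OE C2C12 cells, with 1 point per sample and the mean ± SD beside each group (n = 3). Rpl22l1 stands highest in RPL3 OE (151 to 161 CPM), and the groups of Rplp0 do not overlap.

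In Ribo-seq, of 43 members tested, 2 differed between RPL3L OE and RPL3 OE, where 18.6% of all transcripts did: Rpsa was lower in RPL3L OE (-0.15 ± 0.05, adjusted p = 0.0249) and Rpl38, a protein of the 60S surface, was higher (0.16 ± 0.05, adjusted p = 0.0261). DESeq2 called 0. On leaving out RPL3 OE replicates 1, 2 and 3 in turn the count was 0, 1 and 6, and on leaving out RPL3L OE replicates 1, 2 and 3 it was 1, 0 and 1.

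Against control cells, footprint levels called in either line were lower for all members but Rpl17. RPL3L OE gave 8 calls among 43 members, all lower, where 11.0% of all transcripts were called and 4.98% were lower. They were led by Rps15 (-0.21 ± 0.06, adjusted p = 0.0124), Rpsa (-0.21 ± 0.05, adjusted p = 0.00357), Rplp2 (-0.19 ± 0.06, adjusted p = 0.0223) and Rpl12 (-0.18 ± 0.06, adjusted p = 0.0333). Rpsa footprints were at 414, 426 and 437 CPM in RPL3L OE and at 471, 497 and 509 CPM in control cells, and Rpsa kept its call in all alternatives. The count was 15 without control replicate 1, 1 without control replicate 2, 4 without control replicate 3, and 3, 5 and 1 on leaving out RPL3L OE replicates 1, 2 and 3 in turn. With library totals 8 members were lower and 1 was higher.

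RPL3 OE gave 9 calls among 43 members in Ribo-seq, where 10.9% of all transcripts were called. Of these, 8 were lower, against 5.88% of all transcripts, led by Rpl37 (-0.20 ± 0.06, adjusted p = 0.0335), Rps15 (-0.19 ± 0.06, adjusted p = 0.0259), Rplp2 (-0.18 ± 0.06, adjusted p = 0.0268) and Rpl8 (-0.18 ± 0.05, adjusted p = 0.0277). Rpl17 was higher (0.25 ± 0.07, adjusted p = 0.0195), as its RNA was. Its footprints, scarce for its RNA as described above, were at 89.5, 91.6 and 112 CPM in RPL3 OE and at 78.1, 81.4 and 82.8 CPM in control cells. DESeq2 called 0, the 2 groups fitted alone gave 1, and library totals gave 7 lower and 3 higher. The count was 0 without control replicate 2, 1 without control replicate 3, and 1, 2 and 25 on leaving out RPL3 OE replicates 1, 2 and 3 in turn.

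TE changed for at most 1 member in each C2C12 comparison. Between RPL3L OE and RPL3 OE it was higher in RPL3L OE for 40 of 43 members by a median of 0.10, where 48.2% of all transcripts were lower, and 1 member was called, against 0.438% of all transcripts. That was Rpl22l1 (0.29 ± 0.07, adjusted p = 0.0360), whose RNA differed by -0.36 and whose footprints, at 275 to 290 CPM in RPL3L OE and 283 to 321 CPM in RPL3 OE, overlapped. DESeq2 called 0, and the call was lost without control replicate 3, RPL3 OE replicate 1 or 2, or RPL3L OE replicate 1 or 3. Against control, RPL3 OE gave 0 calls by edgeR and 0 by DESeq2, where 0.0520% of all transcripts were called by edgeR. The unadjusted p was under 0.05 for 14 of 43 members and for 1083 of all 13457 transcripts. Rps15 (-0.21 ± 0.07, adjusted p = 0.369) and Rpl36 (-0.22 ± 0.08, adjusted p = 0.430) were nearest to the threshold. Without RPL3 OE replicate 3 the count of calls was 2. RPL3L OE gave 1 call, where 2.34% of all transcripts were called. It was Rpl21 (1.25 ± 0.36, adjusted p = 0.0448), a change that rests on 2 to 8 Ribo-seq counts in each control sample. Their mean of 5.67 is under the count minimum, which the gene passed through the 19, 17 and 22 counts of RPL3L OE, so the call is given as a description. The count was 0 when any 1 of the 6 samples compared was left out.

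**Figure D5:**
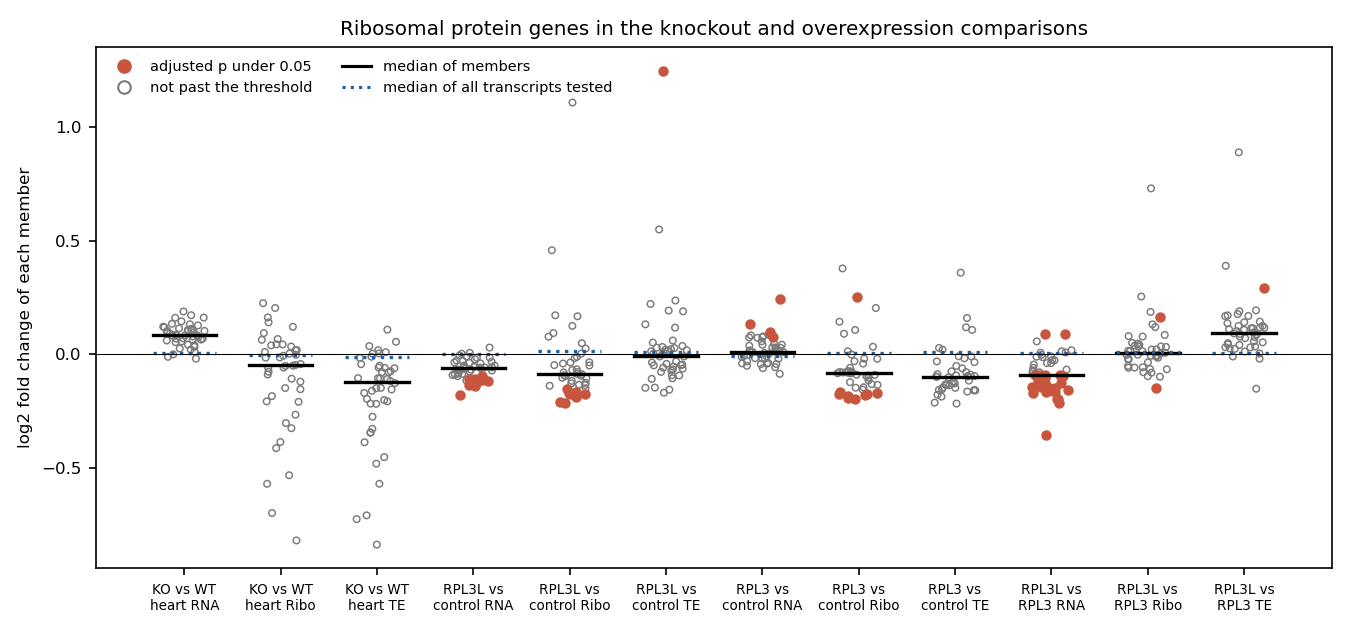
Log2 fold change of each member (y axis, 1 point per gene) in 12 of the knockout and overexpression comparisons, with filled points for an adjusted p under 0.05 (edgeR), black bars for the median of members and dotted bars for the median of all transcripts tested. Filled points are most frequent in RNA-seq of RPL3L OE against RPL3 OE (25 of 44), and no member is filled in the heart.

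Other lists of the translation machinery were counted in the C2C12 fits as well. Between RPL3L OE and RPL3 OE, RNA of the 12 TOP translation genes was called lower for 4 (Fau, Eef1g, Hnrnpa1 and Naca) and higher for 2 (Eif4b and Eif3l). Eif4b, which encodes a helper of the cap-binding helicase, differed by 0.13 ± 0.03 (adjusted p = 0.000718). Fau, which yields a 40S protein, differed by -0.12 ± 0.03 (adjusted p = 0.00507). Among all transcripts 26.6% were called in this comparison. Of 30 ribosome biogenesis genes 5 were higher and 3 lower, of 11 growth regulators 2 were higher and 1 lower, and of 47 mitochondrial ribosomal protein genes 5 were higher and 6 lower. Rack1 was called in neither direction (-0.01 ± 0.03, adjusted p = 0.813). In Ribo-seq of the same lines, where 18.6% of all transcripts were called, the edgeR calls were 0 among TOP translation genes, 4 higher among biogenesis genes, 1 lower among growth regulators, and 5 higher and 2 lower among mitochondrial ribosomal protein genes. Against control, RPL3L OE gave in RNA-seq (9.05% of all transcripts) 1 lower TOP translation gene, 4 higher biogenesis genes, 1 higher growth regulator and 0 mitochondrial genes, and in Ribo-seq (11.0%) 2 lower, 4 higher and 1 higher in the same order, with 4 higher and 2 lower mitochondrial genes. RPL3 OE gave in RNA-seq (15.9%) 2 lower TOP translation genes, 3 higher and 1 lower biogenesis genes, 1 higher and 1 lower growth regulator, and 4 higher and 2 lower mitochondrial genes. In Ribo-seq (10.9%) it gave 3 higher biogenesis genes, 1 lower growth regulator, and 2 higher and 2 lower mitochondrial genes. In TE 1 gene of these lists was called over the 3 comparisons, a mitochondrial gene higher in RPL3L OE than in control.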

How the data were processed

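The authors deposited 1 table of read counts per transcript and 1 of read counts per m6A peak. Per their methods, Ribo-seq and Disome-seq reads were trimmed with cutadapt, cleared of rRNA, aligned with STAR to GRCm38.p6 transcripts and the mm10 genome with multiple mappings allowed, deduplicated by UMI and counted with featureCounts, tools and builds also named in the submitters' processing notes. Versions, the strand setting and separate RNA-seq steps are not given in the sources used here. With multiple mappings allowed, a read may count for several isoforms or gene copies. The m6A peaks were called by the authors with HOMER. Of the 23877 transcripts, each on 2 identical lines (1 kept), 23662 matched GENCODE M21. Of the m6A file, 6 TPM columns were not used. The 2 disome columns of a replicate number were summed as runs of that heart.

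Transcripts with a mean of at least 10 counts in each assay were tested with edgeR 4.0.16 (quasi-likelihood, TMM within assay, R 4.3.3, two-sided). P-values were adjusted over all transcripts. CPM of members come from each comparison's own scaling, so WT heart levels differ between the comparison with KO and that with C2C12. CPM of Rpl3l and of the cell type markers use the total of 1 transcript per gene, without TMM. They read higher than member CPM for the same count. DESeq2 1.42.0 was an alternative. Scripts were tested on simulated data. The ± values are SDs over replicates or SEs of fitted differences, and both include the spread between replicates. Floors (3 counts) cover counting error only. Replicates differed by more than sampling noise (lowest chi-square over its degrees of freedom, 1.37). The paper calls the C2C12 Ribo-seq samples biologically independent and does not say whether they were infected separately. Where nothing says that samples are separate cultures, p-values measure only the spread between these samples. Same-numbered Ribo-seq and Disome-seq libraries deviated together (correlation 0.77 to 0.92 in 8 of 8 pairs) and so form pairs. The disome comparison was fitted without the block, and the blocked value stands beside it. Of 17 RNA-seq and Ribo-seq pairs 7 exceeded 0.1. In WT hearts these correlations were 0.40 to 0.54. In KO hearts they were 0.75 and 0.64 for replicates 1 and 4 but -0.70 and -0.76 for replicates 2 and 3. In C2C12 they ran from -0.02 to 0.13. RNA-seq and Ribo-seq were not treated as pairs in the main fits, although the SDs of TE match libraries by number. The replicate block matches RNA-seq and Ribo-seq by number. With it, TE between KO and WT hearts gave 0 members and 0% of all transcripts called. Given the negative correlations in KO replicates 2 and 3, the blocked fit adds no support to the unblocked one.

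Members and lists were chosen with earlier results of these data known. Genes named were the 4 largest increases and 4 largest decreases called in a comparison (the 2 smallest p where 0 passed), the 5 highest and 5 lowest by level, TE and disome ratio, and stalk, paralog, 5S particle and Diamond-Blackfan genes, with Rpl3l, Fau and Rack1 for comparison; Eef2, Naca, Eif4b, Eif3l, Eef1g and Hnrnpa1 were named after their values were seen. Alternatives were other count filters, scalings, DESeq2, a replicate block, 1 transcript per gene, each replicate left out, and coding length. The values of 1 member are not reported here, although counts and medians over the members include it.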

Additional observations from a re-analysis of the deposited data

Results flagged for a closer look

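In groups of 4 hearts, the sample farthest from its neighbour was compared with the range of the group (Dixon's test) for the share of counts in members and for the RNA-seq and Ribo-seq levels of Rpl18, Rpl22l1 and Rpl29. Of 18 groups 2 stood past the test's 95% limit, and chance flags about 1 in 20. Both were RNA levels in Rpl3l KO hearts: Rpl22l1, at 30.7, 32.0, 33.5 and 49.5 CPM, had a ratio of gap to range of 0.85, and Rpl18, at 381, 387, 400 and 493 CPM, a ratio of 0.83. The high value was that of KO replicate 2 in both, the KO library with the largest share of RNA-seq counts in members (6.35%).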

How the results depend on the processing

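Of 41 named calls, 22 were kept in every alternative and 19 were lost in at least 1. Counts of members called that moved by over 1.5 times were as follows, and the cause was not tested. With DESeq2 the count was 1 in heart Ribo-seq (0 with edgeR), and 0 in C2C12 Ribo-seq for RPL3 OE against control (9) and for RPL3L OE against RPL3 OE (2), and in C2C12 TE for RPL3L OE against RPL3 OE (1). With 1 transcript per gene, Ribo-seq of RPL3L OE against control gave 5 (8), and with only the groups compared RPL3 OE against control gave 1 (9). TE of RPL3L OE against control (1) gave 0 with a total of at least 10 counts or a mean of at least 50, and 2 with library totals, with the replicate block and with only the groups compared. The replicate block ended 3 named calls, all in RNA-seq (Rpl26 between heart and C2C12, Rpl31 between the overexpressing lines and Rplp0 in RPL3 OE against control), and no other. With library totals Rpl26 reversed to -0.27. When single replicates were left out, counts ranged in C2C12 RNA-seq from 4 to 21 (RPL3L OE against control) and 3 to 9 (RPL3 OE against control), in Ribo-seq from 1 to 15 (RPL3L OE against control), 0 to 25 (RPL3 OE against control) and 0 to 6 (RPL3L OE against RPL3 OE), and in TE from 0 to 1, 0 to 2 and 0 to 1 in the same order. Between heart and C2C12 they ranged from 29 to 37 in RNA-seq and 41 to 43 in TE. The low disome totals, the few footprints on Rps2, Rpl21 and Rpl29, and reads shared between gene copies limit what these counts can show.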
